A study of Homo sapiens with 2 samples.

Results

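Joined loci are the entries of the expression tables to which the assembler gave more than 1 gene name, where neighbouring, nested or near-identical genes fell into the same locus. They were chosen by their names alone: any entry whose name field held a comma, on a chromosome and not on an unplaced or alternate contig. The empty-vector table (EV) held 842 joined loci among 25567 loci with a gene name (3.29%), out of 30971 loci in all. In the PRSS35 table, 849 of 25549 named loci were joined (3.32%), out of 30543. These made 778 different sets of gene names in EV and 786 in PRSS35, of which 678 sets were identical in both tables, 100 were seen in EV only and 108 in PRSS35 only.

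The RNA came from PLC, a human liver cancer cell line, with no treatment in either condition. Both populations were stable lines made with the lentiviral vector pCDH: EV cells, of the genotype WT in the labels, carried it empty, and PRSS35 cells over-expressed from it PRSS35, a secreted serine protease. Each condition had a single library, so the differences below could not be held against replicates or tested. In FPKM (sequenced fragments, scaled to transcript length and library size), PRSS35 was at 0.643 in EV (0.445 to 0.841) and at 1836 in PRSS35 cells (1759 to 1912). Values in parentheses after an FPKM are the bounds deposited beside it, which cover error within a library only. Of 10 hepatocyte markers, 9 were at 1 FPKM or more in both libraries. The 10 ranged from 0.598 to 2528 FPKM in EV and from 0.540 to 4239 in PRSS35. ALB was low among them, at 4.05 and 5.21. None of 3 endothelial markers and 1 of 4 fibroblast markers reached 1 FPKM. Of 4 leukocyte markers 2 did, LYZ and CD68, and CD68 was listed only inside the joined locus CD68,MPDU1.

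Human genes often lie close together, and some share DNA. Small nucleolar RNAs (snoRNAs), which guide chemical modification of ribosomal RNA, sit in introns of host genes, and many microRNAs (miRNAs), short RNAs that repress messenger RNAs through a seed near their 5′ end, lie within a longer transcript. RNA polymerase II normally releases a transcript after a polyadenylation signal, usually AATAAA or its variant ATTAAA, near the end of the gene. When transcription runs past that end into the next gene on the same strand, readthrough transcripts can form, and some are annotated as genes of their own with a hyphenated name. Gene families with near-identical copies pose a separate difficulty, since a read may fit several copies equally well. A joined locus has 1 FPKM value for all its genes, so the level of each gene within it is not given.

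MiRNA names were the most frequent class of small RNA in the joins, with 217 names, of which 195 had a mature sequence in RefSeq (GRCh38.p14). Apart from miR-25, the mature sequences below belong to joined loci that changed most, stood among the highest or held many names. The seed, bases 2 to 8, is in capitals. In the joined locus of the miR-17 host gene, MIR17HG, which is a well-known cluster of growth-related miRNAs, 3 seeds occurred in 2 miRNAs each. MiR-17 and miR-20a shared AAAGUGC, miR-19a and miR-19b shared GUGCAAA, and their 5′ arms, not shown, shared GUUUUGC. MiR-25 of the joined locus MCM7,MIR25 is shown because miR-92a of the MIR17HG locus has its seed, AUUGCAC.
hsa-miR-17-5p: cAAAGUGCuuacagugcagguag
hsa-miR-20a-5p: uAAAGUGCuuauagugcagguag
hsa-miR-19a-3p: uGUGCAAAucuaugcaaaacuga
hsa-miR-19b-3p: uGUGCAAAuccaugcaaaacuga
hsa-miR-92a-3p: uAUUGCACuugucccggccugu
hsa-miR-25-3p: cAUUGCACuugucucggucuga
hsa-miR-18a-5p: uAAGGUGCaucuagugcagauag
hsa-miR-4426: gAAGAUGGacguacuuu
hsa-miR-3654: gACUGGACaagcugaggaa
hsa-miR-4444: cUCGAGUUggaagaggcg
hsa-miR-3658: uUUAAGAAaacaccauggagau

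Over all 195 miRNA genes there were 293 mature sequences with 261 different seeds, and 26 seeds were shared by more than 1 miRNA gene. For 190 of the genes a mature sequence was found letter for letter inside the joined locus on hg19. Of these, 165 stood in a set with a gene that is no small RNA, and for 123 of the 165 the miRNA sequence overlapped an exon of such a gene. MiR-4426 matched an exon of RPS27A at chr2:55461302-55461318 on the plus strand, although RefSeq places its gene on chromosome 1. MiR-3654 matched an exon of EEF1G at chr11:62327635-62327653 on the minus strand, and RefSeq places its gene on chromosome 7. In all, 7 of the 195 miRNA genes were on another chromosome in RefSeq than the joined locus that carried their name, and 2 of these 7 still had their sequence in that locus. The FPKM of such a locus is that of its whole set and gives no level for the mature miRNA.

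Another group of sequences comes from pairs of genes on the same strand that were joined in both libraries although a gap separates them. Gaps, overlaps and distances between genes, here and below, were measured between canonical transcripts, the form that GENCODE picks to represent a gene. For 27 pairs the gap was 1 to 300 bases long, and in 6 of these no exon is annotated within the gap. In the others an annotated exon reaches into the gap. Shown are the end of the upstream gene, with its polyadenylation signal in capitals, and the whole gap that follows it, both on the strand of the genes. ZNF580 and ZNF581 are zinc finger genes, with the end at chr19:56154809-56154836 and the gap at chr19:56154837-56155014 of hg19, plus strand. TAF6L, a subunit of histone acetyltransferase complexes, precedes TMEM179B, a membrane protein gene, with the end at chr11:62554786-62554814 and the gap at chr11:62554815-62554873, plus strand. MAFG, a small leucine zipper transcription factor, precedes SIRT7, a sirtuin deacetylase, with the end at chr17:79876146-79876172 and the gap at chr17:79876053-79876145, minus strand.
end of ZNF580: ctttgctcAATAAAcattccgcactcca
gap from ZNF580 to ZNF581: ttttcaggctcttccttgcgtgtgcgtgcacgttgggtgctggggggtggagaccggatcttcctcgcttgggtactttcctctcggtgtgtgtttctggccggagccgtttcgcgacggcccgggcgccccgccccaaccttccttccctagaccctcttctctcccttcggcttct
end of TAF6L: tccttgtaAATAAAtcccgcccccggaaa
gap from TAF6L to TMEM179B: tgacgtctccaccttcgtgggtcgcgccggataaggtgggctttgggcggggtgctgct
end of MAFG: atatgatcAATAAAccttttaaagaga
gap from MAFG to SIRT7: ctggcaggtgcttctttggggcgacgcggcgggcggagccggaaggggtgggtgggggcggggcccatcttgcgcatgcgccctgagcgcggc

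The motif AATAAA, read on the strand of the genes, was in 0 of the 27 gaps, and in 1 of 57 gaps of 1 to 300 bases whose genes were joined in neither library (1.75%). The GC content of the 27 gaps had a median of 68.6% (51.2% to 80.9%), and that of the 57 a median of 66.5%. ZNF580,ZNF581 stood at 246 FPKM (235.9 to 256) in EV and 196 (188 to 205) in PRSS35. TAF6L,TMEM179B had 190 and 166 FPKM, and MAFG,SIRT7 had 40.9 and 37.8. All 3 loci were thus well expressed in both libraries, which gives no level for each gene of a pair. ECSIT,ZNF653 (165 and 122 FPKM) and GPATCH3,GPN2 (108 and 103) also had no exon in the gap and are not shown.

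Most joined loci were pairs, and they lay on every chromosome. In EV 636 of the loci (75.5%) had 2 names, 167 had 3, 21 had 4 and 18 had 5 or more, and in PRSS35 the counts were 640, 170, 19 and 20. Their median length was 25494 bases in EV (quartiles 8214 and 62505.5) and 26289 in PRSS35, beside 17212 and 17247 bases for loci with 1 name. Among loci of at least 1 FPKM the medians were closer, with 29976.5 against 25105 bases in EV and 31767 against 25260 in PRSS35. Joined loci were thus somewhat longer than others, also where only expressed loci were compared.

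**Figure D1:**
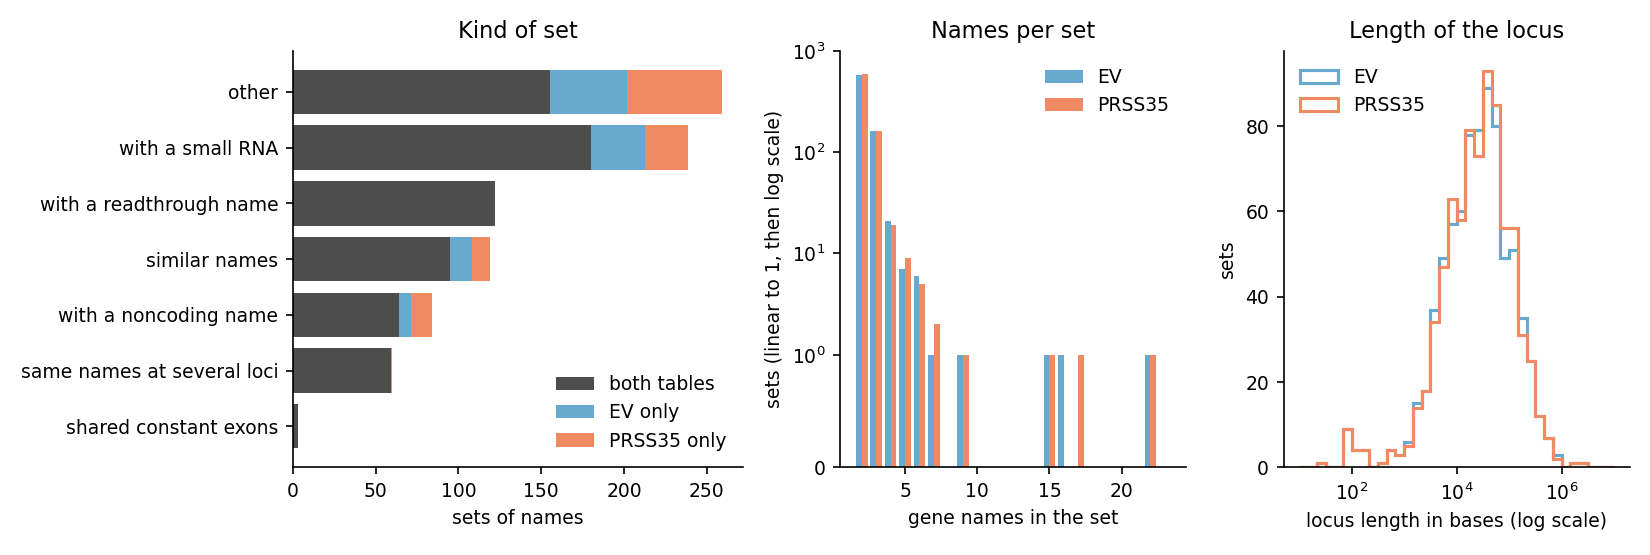
Left, joined sets of names by kind, with bars split into sets of both tables, of EV only and of PRSS35 only; middle, sets by number of gene names (axis linear to 1, then log); right, sets by locus length in bases (log axis), for each table. Other neighbours (259 sets) and sets with a small RNA (239) are the longest bars, pairs dominate both tables, and the length curves of EV and PRSS35 nearly coincide.

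Joined loci were more often expressed than loci with 1 name. In EV 554 joined loci (65.8%) were at 1 FPKM or more, beside 39.0% of loci with 1 name, and in PRSS35 561 (66.1%) beside 39.6%. Their median among those was 28.9 FPKM in EV and 30.3 in PRSS35, beside 9.59 and 9.82 for loci with 1 name. They held 15.3% of the FPKM of named loci in EV and 14.2% in PRSS35. All joined loci carried an identifier of the assembler in place of an annotated one, while 35.6% (EV) and 36.7% (PRSS35) of 1-name loci did. Of the 1-name loci of at least 1 FPKM, 64.3% and 64.9% carried one. A joined value also pools several genes. Small RNA loci with a single name numbered 2121 in EV and 2130 in PRSS35, with 99.5% listed at 0 in either. The part of the assembly, the pooling and the small RNAs in these contrasts was not tested. At the joined loci of at least 1 FPKM, the intervals implied a median of 1110 fragments in EV and 1140 in PRSS35, and a lower quartile of 286 and 310.

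The 886 sets fell into 7 kinds, and each was counted in the first that applied. Sets listed at several loci under the same names, called copies here, numbered 60. Sets with a small RNA numbered 239, and 3 sets were clusters of genes that share their last exons and differ in the first. Next came 122 sets with a hyphenated readthrough gene, 84 with an antisense, noncoding or unnamed gene, and 119 with similar names, called families here. The remaining 259 sets joined other genes, and 104 of them (40.2%) were seen in 1 table only. All 122 readthrough sets were seen in both tables, and of the 60 copies 1 was seen in 1 table only (1.67%), against 23.5% of all sets. A readthrough gene overlaps its neighbours by definition, and a set of copies has several loci by which its names can match. The part of either in the shared joins was not tested. Sets of other neighbours thus differed most often between the tables.

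Among sets of both tables, gene clusters with alternative first exons held the most names. The protocadherin gamma cluster, whose cell adhesion proteins are best known from neurons, joined 22 names over 182297 bases on chromosome 5, at 0.531 FPKM in EV (interval 0.317 to 0.746) and 0.321 in PRSS35 (0.134 to 0.507). The protocadherin alpha cluster joined 15 names at 0.166 and 0.249 FPKM. UGT1A, the family of enzymes that conjugate bilirubin and drugs with glucuronic acid in the liver, joined 9 names on chromosome 2. It was listed at 0 in EV and at 0.0225 FPKM (0 to 0.136) in PRSS35. None of these clusters reached 1 FPKM in either library.

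The locus of MIR17HG joined 7 names over 6756 bases, at chr13:92000074-92006829. Its FPKM was 0.440 (interval 0 to 2.55) in EV and 0.196 (0 to 2.29) in PRSS35, which overlap widely. The GAGE genes, cancer-testis antigens on the X chromosome, were joined under 16 names in EV only, at 4.12 FPKM (2.14 to 6.10), and under 17 in PRSS35 only, at 4.75 (2.64 to 6.87). Among the matched sets with 6 names was one of CT45A genes, also cancer-testis antigens on the X chromosome, at 9.38 FPKM (7.90 to 10.9) in EV and 5.44 (4.35 to 6.52) in PRSS35. Those intervals did not overlap, and the log2 change was -0.69. All log2 changes here are ratios of PRSS35 to EV after 1 FPKM was added to each value, a scale that understates changes of low loci.

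The longest joins of both tables covered NBPF genes, a primate family of repeated protein domains on chromosome 1. A set of 6 NBPF genes spanned 2320934 bases at 2.69 FPKM in EV and 3.07 in PRSS35, and a set of 5 spanned 1535403 bases at 1.72 and 2.24. ZBTB20, a zinc finger repressor of fetal liver genes, with MIR568 spanned 832781 bases at 0.0358 and 0.0405 FPKM. IQCJ,IQCJ-SCHIP1,SCHIP1 spanned 828115 bases at 1.75 and 2.05 FPKM. AKAP2,PALM2,PALM2-AKAP2, which holds an anchoring protein of protein kinase A, spanned 531724 bases at 0.0536 and 0.0314. The longest loci therefore included both repeated families and single long genes, all at low levels. At the other end, RNU6-35P,RNU6-64P, a pair of U6 snRNA pseudogenes, was 31 bases long and listed at 0 in both libraries.

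Genes joined at 1 place were nearly always on 1 strand. Of 605 sets with 1 locus and at least 2 names placed in GENCODE, 603 were on a single strand. The 2 others were CSAG3,CSAG4,MAGEA12,MAGEA2,MAGEA2B and LOC101928605,OR2A1-AS1,OR2A20P,OR2A9P, named here after their values were seen. Over 18991 pairs of neighbouring coding genes, 9517 (50.1%) were on the same strand, and 559 of those (5.87%) were joined in at least 1 library. Of 4737 divergent pairs 3 (0.0633%) were joined, and likewise 3 of 4737 convergent pairs. Cufflinks places transcripts of 1 strand in a locus by construction, so these shares are no finding about the genes.

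Joining fell steeply with the distance between the genes. Of 378 same-strand pairs whose canonical transcripts overlap, 301 (79.6%) were joined, and of 200 pairs with a gap under 500 bases 66 (33.0%) were. From 500 to under 1000 bases 46 of 230 pairs were joined, from 1000 to under 2000 bases 9.38% of 416, and from 2000 to under 5000 bases 4.22% of 972. The share was 2.27% of 1146 pairs from 5000 to under 10000 bases, 0.934% of 3427 from there to under 50000, and 8 of 2748 (0.291%) beyond that. Every wider class of gap thus had a lower share than the one before it.

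**Figure D2:**
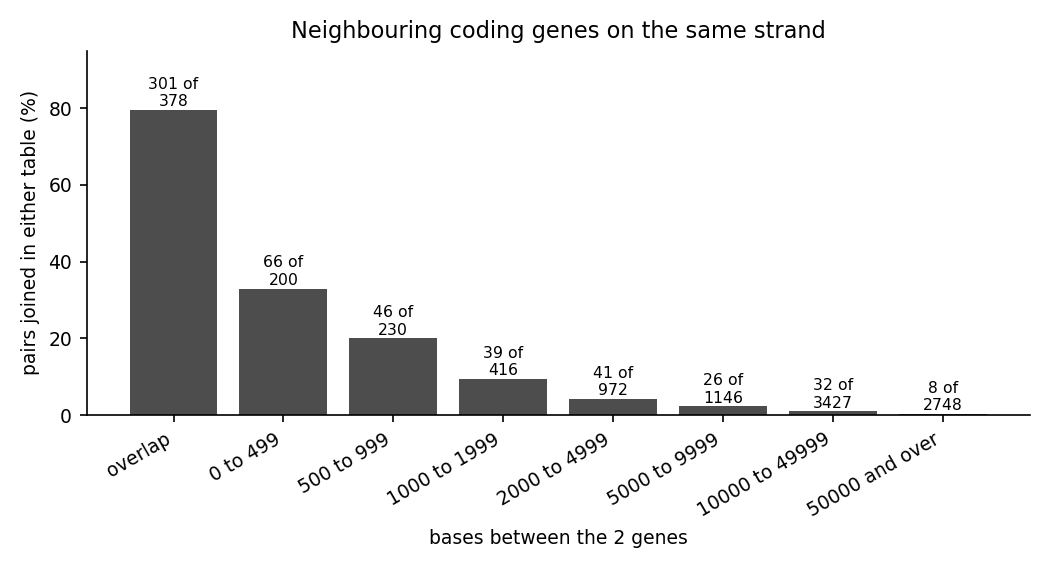
Bars give the percent of neighbouring coding gene pairs on the same strand that were joined in at least 1 library. Pairs are grouped by the gap in bases between their canonical transcripts. The share falls from 79.6% for overlapping genes to 33.0% under 500 bases and 0.291% at 50000 bases or more.

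The end of the upstream gene was read for polyadenylation signals in the last 50 bases on its own strand. AATAAA was there in 161 of 258 joined upstream genes with a gap (62.4%), in 4087 of 6135 upstream genes of expressed pairs that were not joined (66.6%), and in 65.1% of all 19015 coding genes. With ATTAAA counted too, the shares were 74.8%, 81.5% and 79.4%. Within gaps under 10000 bases they were 74.3% of 218 joined and 80.9% of 2144 not joined. Joined pairs were taken at any level, and those not joined only where the higher gene was at 1 FPKM or more. These are descriptions of letters near gene ends, and no use of a signal was measured.

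Levels of the matched joined loci differed little between EV and PRSS35 cells. Of the 678 matched sets, 451 had a mean of at least 1 FPKM over both libraries. Among those, 9 were at least 2-fold higher and 2 at least 2-fold lower in PRSS35 (2.44% in either direction), where 3.73% of all 10133 matched names were (1.89% higher and 1.84% lower). When each library was scaled to its summed FPKM the split was 35 higher and 1 lower, a scaling that moved the median of all names from 0.06 to 0.67 (log2), and with values centred on the median it was 7 higher and 3 lower. The median log2 change of the joined sets was 0.05, the quartiles were -0.16 and 0.19, and 423 of the 451 changed by less than 1.5-fold. All matched names had a median of 0.06. The deposited intervals did not overlap for 41.9% of the joined sets, 100 higher and 89 lower, beside 39.0% of all matched names (24.7% higher and 14.3% lower). In bulk RNA, fewer cells that express a gene and less RNA per cell cannot be told apart.

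**Figure D3:**
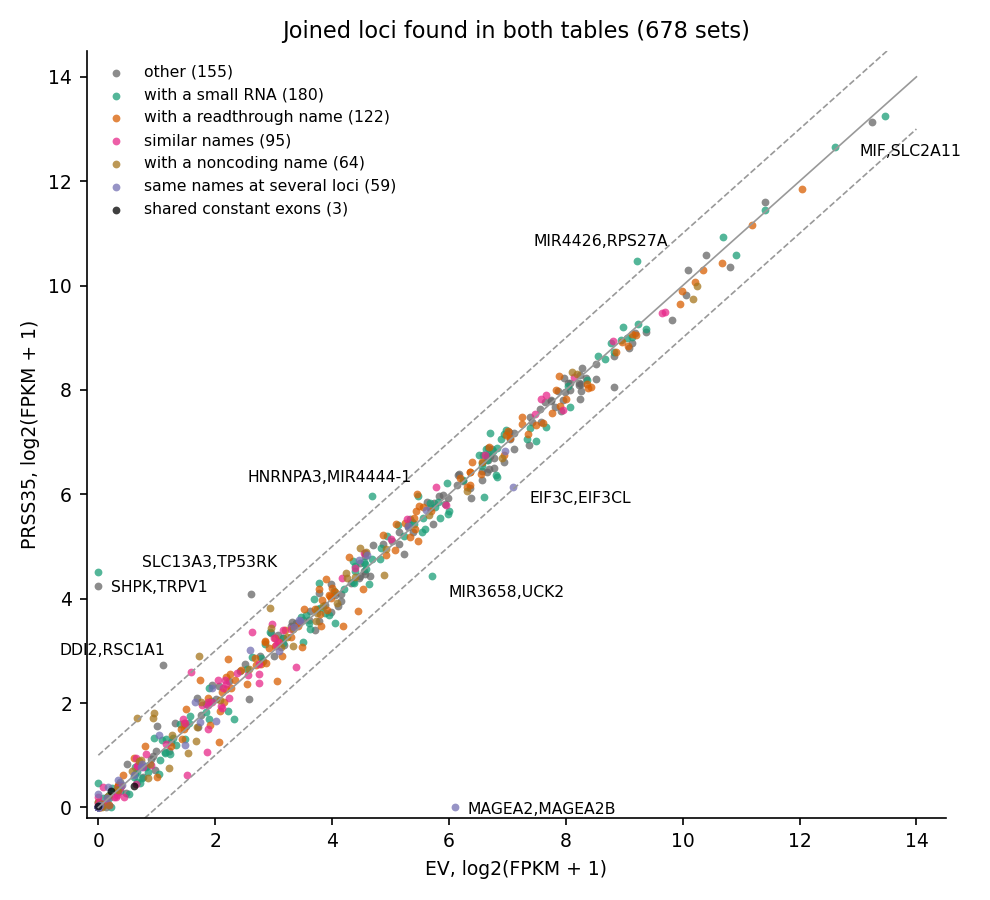
Each point is 1 of the 678 joined sets of both tables, coloured by kind, at its log2(FPKM + 1) in EV (x axis) and in PRSS35 (y axis), with lines at equality and at a 2-fold difference (dashed). Of the 451 sets with a mean of at least 1 FPKM, 9 lie above and 2 below the dashed lines.

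Ribosomal protein genes were among the highest. MIR6850,RPL8, with a gene of the large ribosomal subunit, had 6219 FPKM (5960 to 6478) in EV and 6443 (6175 to 6711) in PRSS35. NUDT3,RPS10,RPS10-NUDT3, a readthrough set of a diphosphohydrolase gene and a protein of the small subunit, had 4230 (4065 to 4396) and 3686 (3543 to 3830), a log2 change of -0.20. The intervals overlapped for RPL8, and for the RPS10 set they did not. Of 17 expressed matched sets with a ribosomal protein gene, cytosolic or mitochondrial, 1 was 2-fold higher and 0 were lower, where 1.89% and 1.84% of all matched names were. Their median log2 change was -0.15, beside 0.06 for all matched names.

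Among the other highest sets, MIF, a cytokine that was named for macrophage migration, was joined to the sugar transporter gene SLC2A11. The locus, chr22:24198890-24237409, had 9721 FPKM (9315 to 10127) in EV and 8950 (8576 to 9325) in PRSS35. C9orf172,CCDC183,PHPT1,RABL6,TMEM141, which holds the phosphohistidine phosphatase PHPT1, had 2715 (2633 to 2797) and 3112 (3023 to 3200). The elongation factor subunit gene EEF1G with MIR3654 had 2704 and 2797. NME1,NME1-NME2,NME2, a pair of nucleoside diphosphate kinases with their readthrough gene, had 2337 and 2294. The intervals overlapped for EEF1G and the NME genes, with log2 changes of 0.05 and -0.03, and only just for MIF, with -0.12.

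A pair of sets rose from a value listed at 0. DGAT1, which catalyses the last step of triglyceride synthesis, with MIR6848 was listed at 0 in EV and at 21.9 FPKM (20.3 to 23.5) in PRSS35. SHPK,TRPV1 at chr17:3468740-3539616, which joins a sedoheptulose kinase and the capsaicin receptor, was listed at 0 and at 18.04 FPKM (17.0 to 19.1). Both had the status OK, and the same locus start and end, in both tables. A listed 0 need not mean absent RNA here, so no fold is given for them. Over the 678 matched sets 126 were listed at 0 in both tables, 12 in EV only and 8 in PRSS35 only.

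Higher by 2-fold with values above 0 in both libraries were 7 sets. DDI2,RSC1A1, which joins a retroviral-like protease and an intronless regulator of glucose transport, had 1.16 FPKM (0.945 to 1.38) in EV and 5.62 (3.60 to 7.64) in PRSS35, a log2 change of 1.61. SLC13A3,TP53RK, a dicarboxylate transporter and a p53-related kinase, had 5.09 (4.61 to 5.58) and 15.95 (14.3 to 17.6), a log2 change of 1.48. HNRNPA3, an RNA-binding protein, with MIR4444-1 had 24.8 (23.2 to 26.3) and 61.2 (58.0 to 64.4), a log2 change of 1.27. In all 3 the intervals were far apart. RPS27A, which encodes ubiquitin fused to a ribosomal protein, with MIR4426 had 596 (576 to 617) and 1424 (1369 to 1479), a log2 change of 1.25, the highest level among the sets that rose. The mature sequence of miR-4444 matched an exon of HNRNPA3, at chr2:178077496-178077513 on the plus strand.

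The fragments that the intervals implied did not always move with the FPKM. They went from 1030 in EV to 1490 in PRSS35 for HNRNPA3,MIR4444-1, but from 3380 to 2660 for MIR4426,RPS27A, from 113 to 31.1 for DDI2,RSC1A1 and from 439 to 382 for SLC13A3,TP53RK. For the latter 3 the FPKM thus rose while the implied fragments fell, and the part of this in the values was not tested.

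The 3 remaining were low. FAM231D,LOC388692 had 2.29 FPKM in EV and 6.47 in PRSS35, and STAG3L1,STAG3L3, pseudogenes of a cohesin subunit, had 1.99 (1.60 to 2.39) and 5.07 (4.44 to 5.70). CYP2D6, a liver enzyme that oxidises many drugs, with LOC101929829 had 0.581 (0 to 1.36) and 2.29 (1.44 to 3.14). Even there the intervals did not overlap, although for CYP2D6 the gap between them was narrow. The implied fragments went from 121 to 73.9 for the FAM231D set and from 104 to 259 for the STAG3L1 set. For the CYP2D6 set they went from 2.25 to 29.0, with an interval in EV that began at 0. Few fragments and uncertain assignment of reads cannot be told apart there.

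Lower by 2-fold were MAGEA2,MAGEA2B and MIR3658,UCK2. UCK2, a kinase that salvages uridine and cytidine, with MIR3658 had 51.3 FPKM (47.6 to 55.0) in EV and 20.7 (19.1 to 22.3) in PRSS35, a log2 change of -1.27, with 771 and 666 implied fragments. The mature sequence of miR-3658 matched an exon of UCK2 at chr1:165877160-165877181, plus strand. MAGEA2 and MAGEA2B, near-identical cancer-testis antigen genes, were listed at 2 loci in EV, with 34.2 FPKM (32.4 to 36.1) at chrX:151883075-151887096 and 33.7 (31.8 to 35.6) at chrX:151918387-151922408. In PRSS35 the first was listed at 0, and the second was not listed by itself. CSAG3,CSAG4,MAGEA12,MAGEA2,MAGEA2B of PRSS35, with 160.2 FPKM (154 to 166.4) at chrX:151876743-151922408, spans both places. That wider locus also covers the CSAG4,MAGEA12 of EV, which had 60.7 FPKM there. The change of MAGEA2 thus went with a change of the join, and its part in the value was not tested.

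EIF3C and EIF3CL, copies of a translation initiation factor subunit gene, behaved alike. In EV they had 65.8 FPKM (62.9 to 68.8) at chr16:28390900-28437775 and 69.5 (66.4 to 72.6) at chr16:28699879-28747053. In PRSS35 the second had 69.9 (66.5 to 73.3), and the first was part of EIF3C,EIF3CL,NPIPB6 with 66.6 (63.3 to 69.8). Summed by identical names the log2 change was -0.94, whereas each place taken by itself had overlapping intervals in both libraries. Next came LILRA6,LILRB3, leukocyte immunoglobulin-like receptors, at 1.87 (0.639 to 3.11) and 0.532 (0.286 to 0.778), whose intervals overlapped. The readthrough set of PILRB, an activating immune receptor, had 3.18 (2.62 to 3.75) and 1.40 (1.09 to 1.70), with no overlap.

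By kind, few sets passed 2-fold, where 1.89% of all matched names were higher and 1.84% lower. Of 110 expressed sets with small RNAs, 3 were higher and 1 was lower, with a median log2 change of 0.05. Of 108 readthrough sets, 0 were higher and 0 were lower, with a median of 0.04 and levels of 18.2 FPKM by their median. Of 47 family sets 1 was higher, of 36 noncoding sets 2 were higher, and of 132 sets of other neighbours 3 were higher, with medians of 0.13, 0.02 and 0.02. Of 18 sets of copies 1 was lower, with a median of 0.11. These medians stand beside 0.06 for all matched names. The 132 other neighbours had the highest median level, 58.3 FPKM, and the family sets the lowest, 7.20 FPKM.

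Gene families of liver interest were few among the joins. Glutathione transferase pairs, which detoxify electrophiles, were GSTO1,GSTO2 with 176 FPKM in EV and 184 in PRSS35, and GSTM2,GSTM4 with 97.1 and 107. APOC1, an apolipoprotein, with its pseudogene APOC1P1 had 828 (756 to 901) and 722 (684 to 759). SERPINF2,WDR81, which holds the gene of the plasmin inhibitor, had 233 and 251. APOC2,APOC4,APOC4-APOC2 had 3.54 and 3.81. Intervals overlapped in each of these 5 sets except GSTM2,GSTM4, where 92.6 to 101.6 in EV stood against 102.2 to 111.9 in PRSS35.

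Zinc finger genes were in 24 sets, antisense genes in 26, histone genes in 6 and HLA genes in 1. EIF6, a ribosome assembly factor, with MMP24-AS1 had 1159 FPKM (1119 to 1199) in EV and 860 (830 to 890) in PRSS35, a log2 change of -0.43. ECSIT, an adaptor for immune signalling and complex I assembly, joined to ZNF653 had 165 and 122, also -0.43. H3F3A, a replacement histone gene, with its pseudogene H3F3AP4 had 190 and 226. The antigen-presenting genes HLA-B and HLA-C, as 1 locus of 88464 bases, had 37.8 (35.5 to 40.0) and 45.2 (42.7 to 47.8). All 4 had intervals that did not overlap, and none reached 2-fold.

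Noncoding partners were also joined to highly expressed genes. ATP6V1F, a subunit of the vacuolar proton pump, with LOC100130705 had 1212 FPKM (1158 to 1265) in EV and 1019 (973 to 1064) in PRSS35. DDOST, a subunit of oligosaccharyltransferase, with PINK1-AS had 290 (280 to 300) and 314 (303.7 to 325). The snoRNA host gene SNHG7 with SNORA17 and SNORA43 had 372.5 (355 to 390) and 398.5 (380 to 417), and LRRC75A-AS1,SNORD49B had 450.2 (433 to 467) and 423 (407 to 439). The intervals were apart for the first 2 of these 4 and overlapped for the others. PPM1G, a protein phosphatase, with the zinc finger gene ZNF513 had 188 and 199 FPKM, and SLX1A,SLX1A-SULT1A3,SULT1A4, which holds a sulfotransferase gene, had 80.8 and 85.6.

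Readthrough sets, chosen here after their values were seen, held several genes of basic cell function. C17orf49,RNASEK,RNASEK-C17orf49 had 1633 FPKM in EV and 1380 in PRSS35. The set of EIF4A1, the helicase of translation initiation, with SENP3, TNFSF12, TNFSF13 and their readthrough names had 1299 and 1256. MRPS24,URGCP,URGCP-MRPS24, which holds a mitochondrial ribosomal protein, had 1189 and 1069. Some lower ones differed more. CD302,LY75,LY75-CD302 had 2.32 and 4.44, and RAD51D,RAD51L3-RFFL,RFFL, with a homologous recombination gene, had 17.2 and 10.1.

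Joins seen in 1 table only stood higher than matched ones. Of the 100 sets of EV only, 96 were at 1 FPKM or more, with a median of 64.2, beside 23.1 for matched sets of EV. Of the 108 of PRSS35 only, 99 were, with a median of 78.4 beside 25.6. The part of the assembly, which needs reads, in this difference was not tested. In the other library the names of 71 and 80 sets stood as separate loci, and those of 29 and 28 were grouped otherwise. None was missing from the other table.

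The clearest case was that of FURIN, a proprotein convertase that cleaves secreted precursors. In EV it was joined to FES, a tyrosine kinase gene 1046 bases downstream, at chr15:91411822-91439006, with 238 FPKM (interval 227.8 to 248.2). In PRSS35 the loci were separate, with 233.7 FPKM (223.7 to 243.8) for FURIN and 1.20 (0.920 to 1.49) for FES. The joined EV value lay within the interval of FURIN by itself in PRSS35, and no separate level of FURIN or FES is given for EV. A stretch near the end of FURIN, at chr15:91426653-91426682 of hg19 on the plus strand, holds the variant signal ATTAAA, in capitals, 21 bases before the annotated end.
near the end of FURIN: ttaaagtgATTAAAcgtgcagactatgcaa

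Most joins that were split in the other library had a value close to the sum of the pieces, and to the highest piece by itself. Among those with at least 1 FPKM on either side, the joined FPKM was within 2-fold of the summed FPKM of the separate loci in 64 of 69 sets of EV and 72 of 77 of PRSS35, and within 1.5-fold in 62 and 69. The median log2 ratio of joined to summed value was -0.03 and -0.02. Of the sum, a median of 99.2% (EV joins) and 98.6% (PRSS35 joins) came from the highest gene, and that gene made up at least 90% in 53 and 49 sets. Within 2-fold of the highest separate locus by itself were also 64 and 72 sets, so these counts cannot tell a sum from a single gene. Of all 10133 matched names, 3.73% differed by 2-fold or more between the libraries. As the joined and separate values come from different libraries, any real change of level is part of these ratios.

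**Figure D4:**
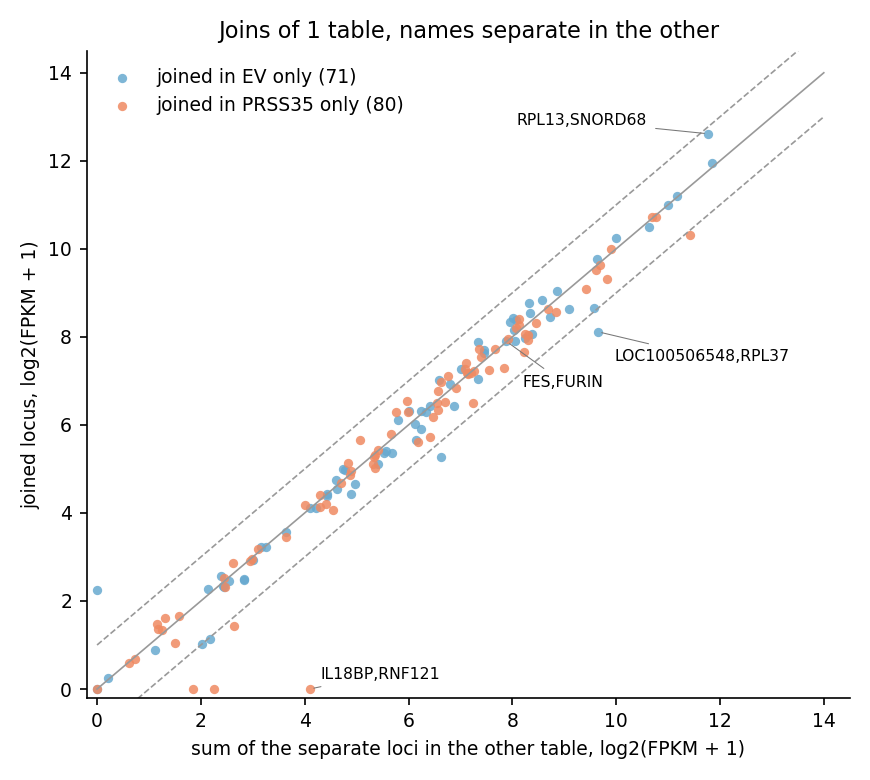
Each point is a join of 1 table only, at the log2(FPKM + 1) of the joined locus (y axis) and of the summed separate loci in the other table (x axis), for 71 joins of EV and 80 of PRSS35, with lines at equality and at 2-fold (dashed). With at least 1 FPKM on either side, 64 of 69 joins of EV and 72 of 77 of PRSS35 lie within the dashed lines.

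Among the highest joins of EV only were ribosomal protein genes with snoRNAs of their introns. RPL13,SNORD68 had 6262 FPKM (6006 to 6519) in EV, and RPL13 by itself had 3513 in PRSS35. RPSA,SNORA6 had 2043 against 2054, and RPL12,SNORA65 had 1443 against 1581. Apart from RPL13, these differed little from the single gene. GNB2L1, a ribosome-associated scaffold protein, with SNORD95 had 2370 against 2292. Of the small RNA names in such split sets, 20 of 20 (EV joins) and 13 of 14 (PRSS35 joins) were listed at 0 where they stood as separate loci. Small RNAs with a locus of their own were at 0 in 99.5% of cases in either library.

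Some joins only exchanged a small RNA. RPL13A,RPL13AP5 was joined with SNORD33 in EV (5831 FPKM, 5600 to 6063) and with SNORD32A in PRSS35 (6554, 6295 to 6813). RNU86,RPL3,SNORD83B of EV had 1386 FPKM (1327 to 1444), and RPL3,SNORD83B of PRSS35 had 1592 (1525 to 1659). The GAS5 locus, a noncoding host of snoRNAs, was joined with SNORD80 and SNORD81 in EV (97.7 FPKM) and with SNORD47 and SNORD76 in PRSS35 (75.1). For each, the identity of the host stayed and the name of the set differed.

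Others added a neighbour. MIR611,TMEM258, which holds a subunit gene of oligosaccharyltransferase, had 1277 FPKM (1214 to 1340) in EV, where FTH1, the ferritin heavy chain, was separate at 946. In PRSS35 FTH1,MIR611,TMEM258 was 1 locus at 2911 FPKM (2814 to 3008), above the sum of both. HSH2D,RAB8A had 40.5 FPKM in EV beside TPM4, a tropomyosin, at 71.7, and HSH2D,RAB8A,TPM4 had 120.8 in PRSS35. ORAI3,SETD1A, a calcium channel subunit and a histone methyltransferase, had 30.2 in EV beside FBXL19 at 29.5, and the join of all 3 had 56.8 in PRSS35. In the latter pair of cases, named after their values were seen, the wider join was close to the sum of its pieces.

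In PRSS35, high joins with separate partners in EV were of tubulin, elongation factor and chaperone genes. TUBA1A,TUBA1B, alpha-tubulin genes 53399 bases apart, had 1700 FPKM (1628 to 1771), and in EV TUBA1B had 1635 and TUBA1A 23.7. EEF2,SNORD37 had 1695 against 1742 for the elongation factor EEF2, and RPL4,SNORD16 had 1018 against 956. HSP90AB1, a cytosolic chaperone, joined to the nucleoside transporter SLC29A1 had 798 (769.4 to 826.2), against 723 and 101 in EV.

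Neighbours on the same strand with a gap made up 41 of the split joins of EV and 53 of PRSS35, with a median gap of 1397 and 2395 bases. In the library where they were separate, the upstream gene was the higher in 30 pairs and the downstream gene in 11 for the EV joins, and in 24 and 29 for the PRSS35 joins. The lower gene of the pair was below 1 FPKM in 15 and 23 pairs, and at 10 FPKM or more in 11 and 18. Joins thus occurred both beside nearly silent neighbours and between expressed ones.

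**Figure D5:**
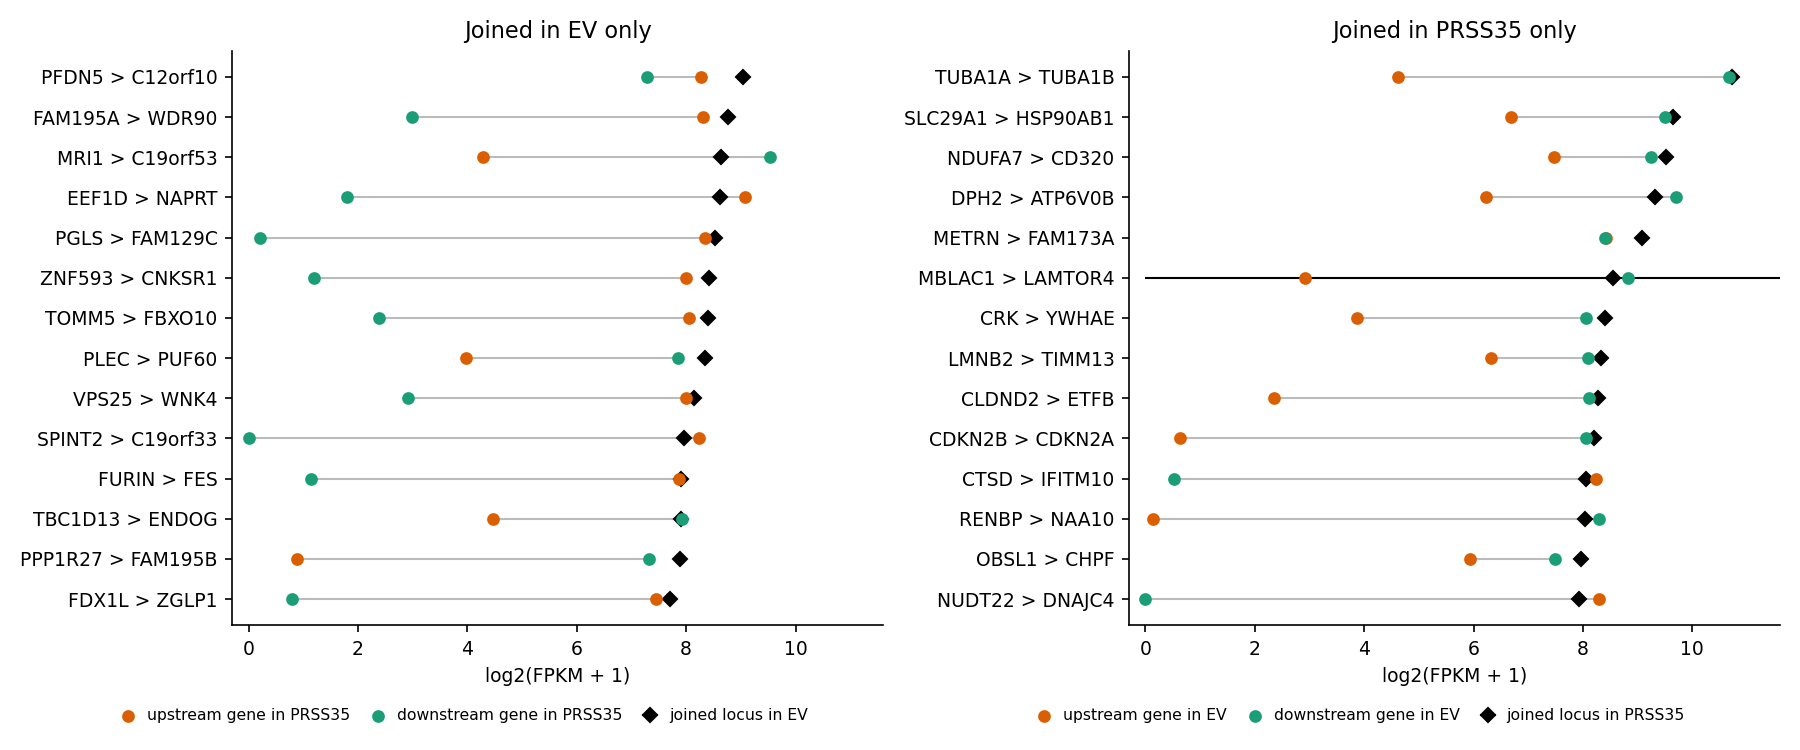
Log2(FPKM + 1) of the joined locus (diamonds, with the deposited interval as a black line where it is wider than the symbol) and of the upstream and downstream gene (circles) in the other library, for the 14 highest such pairs of each table. FURIN and the joined locus nearly coincide (233.7 and 238 FPKM) far from FES (1.20), and the interval of LAMTOR4,MBLAC1, 0 to 39164 FPKM, runs past the right edge.

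Pairs with both genes well expressed, chosen after their values were seen, showed less even relations. PFDN5, a prefoldin chaperone subunit, and C12orf10, 244 bases downstream, had 526 FPKM (507 to 545) as 1 locus in EV, and 310 and 155 in PRSS35. METRN, a secreted neurotrophic factor, and FAM173A, 1490 bases downstream, had 539 (521 to 557) as 1 locus in PRSS35, and 343 and 336 in EV. The first join was above the sum of 465.2 and the second below the sum of 679.7. C19orf53, 173 bases downstream of MRI1, a methionine salvage enzyme, had 742 FPKM by itself in PRSS35, while the join in EV had 400 (381 to 418). Stretches near the ends of the upstream genes PFDN5 and METRN are shown with AATAAA in capitals, at chr12:53693203-53693232 and chr16:769623-769652 of hg19, both on the plus strand.
near the end of PFDN5: ttaatgccAATAAAtgtgccagctgggcag
near the end of METRN: ccgtctctAATAAAacacaaaaaattagcc

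By 2-fold or more from the sum, 1 of 69 joins of EV was above and 4 were below. For PRSS35, 0 of 77 were above and 5 below. Of all matched names, 3.73% differed by 2-fold or more between the libraries. SNHG25,SNORA76C,SNORD104, a noncoding snoRNA host set, had 3.79 FPKM in EV and its names were listed at 0 in PRSS35. LOC100506548,RPL37 had 277 in EV, against 797 for RPL37, a large-subunit protein, in PRSS35. CTRL,PSMB10 had 37.7 in EV, against 97.7 for PSMB10, a subunit of the immunoproteasome. IL18BP,RNF121 was listed at 0 in PRSS35, while RNF121, a ubiquitin ligase of the endoplasmic reticulum, had 16.1 in EV. CAPS,VMAC and LOC100507547,PRRT1 were also listed at 0 in PRSS35, where the loci of EV summed to 2.58 and 3.77. In the sets listed at 0 in PRSS35, the join was at 0 where the separate loci of EV were not. DGAT1,MIR6848 and SHPK,TRPV1, at 0 in EV, were instead joined in both libraries.

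A join of tumour suppressor genes was seen in PRSS35 only. CDKN2A and CDKN2B encode inhibitors of cyclin-dependent kinases, and their canonical transcripts lie 28045 bases apart on chromosome 9. As 1 locus they had 294 FPKM (283 to 304.7). In EV, CDKN2A had 267 (257 to 277) and CDKN2B 0.541 (0.397 to 0.685). The joined value was above that of CDKN2A by itself, and their intervals did not overlap. A set of 7 CT47A genes, cancer-testis antigens on the X chromosome, was likewise 1 locus in PRSS35 at 228 FPKM (221 to 234). EV listed them in several smaller loci, for example CT47A1,CT47A6,CT47A8 at 27.2 and CT47A1,CT47A10 at 22.7. The sum over all these loci of EV is not given here, so no change of level can be read from these values.

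The deposited interval was unusable at 3 joined loci, found by their values. NARR,RAB34 had the status FAIL in EV, with 303 FPKM beside an interval of 0 to 10.3, and 224.8 (214.5 to 235.1) in PRSS35. LAMTOR4,MBLAC1 had 375 FPKM in PRSS35 with an interval of 0 to 39164. CSAG1,CSAG3 had 200.8 (189.6 to 212) in EV, and 238.5 with an interval of 0 to 586 in PRSS35. NARR,RAB34 was nonetheless counted among the 451 sets and among those with intervals apart, and LAMTOR4,MBLAC1 among the split joins.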

How the data were processed

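The authors made 1 library per condition and sequenced it on an Illumina HiSeq2500. They aligned reads to hg19 with TopHat2 2.1.0, and FPKM was estimated by the Cufflinks suite (Cuffdiff 2.2.1 per the labels). The annotation and options are not given in the sources used here. The deposited FPKM and its bounds were used as they stand, without counts, and no test was run. The members, kinds and gene lists were chosen with earlier results of these data known.

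Entries with a comma in their gene name were taken, leaving out 79 in each table on unplaced or alternate contigs, and matched by identical sets of names, with FPKM summed over repeated sets. Sets with a mean of at least 1 FPKM were compared as log2 ratios with a pseudocount of 1 and called at 2-fold. The fragments behind a value were inferred from its upper bound, taken as 2 standard deviations of a count away. Depth limits precision through this number, and the intervals cover counting and assignment error only.

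Named sets were FES,FURIN, the 8 highest, the 5 with the largest change each way, the 5 with most names, the 5 longest, the 8 highest of each table alone and the 3 highest of each name class, and a few of these are not reported here. Genes were placed with GENCODE v44lift37 on GRCh37, the assembly of hg19, which held 1677 of 1971 names (85.1%). MiRNAs came from RefSeq. On simulated tables, 91 of 100 hidden joins were found and 9 stayed joined at another copy. There, 200 of 200 changed sets among 10108 were called, with 0 false calls. These counts check the code only, and the accuracy of calls between the real libraries was not tested. Python 3.11.15, numpy 2.4.6, pandas 2.3.3 and matplotlib 3.10.9 were used. Other pseudocounts, filters, scalings, thresholds and match rules were tried.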

Additional observations from a re-analysis of the deposited data

How the results depend on the processing

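Of 60 values under other settings, 46 stayed within 1.5 times the reported count or 0.1 of the reported log2 value, and 14 did not. The median log2 change of the joined sets, 0.05, turned to -0.02 when centred on the median of all matched loci. The count of matched joined sets higher by 2-fold was 9, and became 5 with a pseudocount of 5 FPKM, 35 when scaled to the summed FPKM, 5 with a mean of at least 5 FPKM and 15 at 1.5-fold. The count of lower sets was 2, and became 5 with a pseudocount of 0.1, 1 with the sum, 1 without loci listed at 0, 1 without joins that rest on a small RNA, 13 at 1.5-fold, and 1 with the same number of loci in both tables, a setting chosen after seeing the data. Dividing by the sum moved the median log2 change to 0.68, as loci without a gene name held 65.3% of FPKM in EV and 44.9% in PRSS35. The log2 change of PRSS35 was 10.13, and 11.27, 8.35 and 10.61 with pseudocounts of 0.1 and 5 and with the sum. Leaving small RNA names out before matching gave 626 and 641 joined loci, 500 matched sets, and 67 and 84 sets of 1 table only. Matching by at least 2 shared names gave 704 matched sets. No paired analysis was possible because there was 1 library of EV and 1 of PRSS35. With that number, differences between cultures and effects of PRSS35 cannot be told apart.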
